A study of Mus musculus with 2 samples.

Results

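Mural cells wrap the endothelial tube of blood vessels, and 10 of their genes were followed through single cells of the mouse midbrain. The genes were picked by symbol from the 31053 genes listed in the count matrices. They comprise 7 contractile genes (Acta2, Tagln, Myl9, Myh11, Tpm1, Tpm2 and Mylk) and 3 genes used to recognise pericytes (Vtn, Rgs5 and Pdgfrb). All 10 were detected in both libraries. Levels are given per cell class and library, and the joint detection of Vtn and Acta2 was counted cell by cell.

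The study used droplet libraries (10x Genomics Chromium), in which a unique molecular identifier (UMI) marks each captured transcript. There was 1 library per group, so each comparison below is between 2 libraries and has no replicate check. Both groups were C57BL/6 mice, labelled as a Parkinson's disease model at 10 weeks of age, and the labels call the tissue substantia nigra pars compacta. Over 3 weeks, with 2 injection days in each, the MNPQ mice received paraquat (10 mg/kg) and then maneb (30 mg/kg) intraperitoneally. The control mice are labelled untreated, while the treatment protocol gives them saline on the same schedule. The extraction protocol names 3 males per group, while the sex label says pooled, and no file separates the animals of a library. The dopamine neuron markers Th and Slc6a3 were nearly absent, with 1 control UMI each and 0 MNPQ UMIs.

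Of 1105 control and 965 MNPQ barcodes, 882 and 854 passed a filter of 200 or more detected genes and no more than 20% UMIs of mitochondrial genes. Their median depth was 974 and 946 UMIs. The cells were clustered with the 10 genes left out, and clusters were named from other marker genes, with the ending -like because the names rest on markers alone. Pericyte-like cells (25 control, 28 MNPQ) held UMIs of all 13 pericyte markers used, with Abcc9, Kcnj8 and Atp13a5 among their 10 leading genes. Smooth muscle-like cells (15 control, 20 MNPQ) held UMIs of all 15 smooth muscle markers in the control library and of 14 in MNPQ. They were led by Pln, the phospholamban gene of the muscle calcium pump. Together these mural-like cells made up 4.54% of kept control cells (95% interval 3.26% to 6.12%) and 5.62% of kept MNPQ cells (4.17% to 7.38%). A single cluster of 81 cells (3.4% of control and 5.97% of MNPQ cells) stayed unnamed. The libraries shared 2 barcodes, none of them mural-like.

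Arterioles and arteries are sheathed in smooth muscle, which narrows the vessel when myosin pulls on smooth muscle actin, while capillaries carry pericytes, which sit in the basement membrane. Acta2 encodes smooth muscle alpha-actin, Myh11 the smooth muscle myosin heavy chain and Myl9 its regulatory light chain. Mylk encodes the kinase that phosphorylates that light chain, Tpm1 and Tpm2 encode tropomyosins that run along the actin filament, and Tagln encodes the actin-binding protein transgelin. Of the pericyte genes, Vtn encodes vitronectin, an adhesive matrix protein bound by integrins, Rgs5 a regulator that shortens G protein signalling, and Pdgfrb the receptor through which endothelial PDGF-B recruits mural cells.

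Serum response factor is known to drive many smooth muscle genes through CArG boxes, so the sequences before the start sites were searched for them. A box was taken as CC, then 6 bases that are all A or T, then GG, or the same with 1 of the 6 bases a C or G. This pattern reads the same way on both strands. RefSeq promoters (GRCm38.p6) matched 7 of the 10 genes. In the 250 bases before the start, Myl9 held 1 box without a C or G in the core and 1 with, and Acta2 held 2 boxes with 1 such base. Tpm1, Tpm2, Mylk, Vtn and Rgs5 held none. Over 32851 mouse promoters of that length, 1.47% held a box without and 8.59% a box with up to 1 core C or G. The stretches below show the 2 contractile genes with boxes beside the 2 pericyte genes, 5′ to 3′ on the gene's strand, outside exons annotated by GENCODE. For Acta2, 30 bases around each box are shown, because GENCODE places these boxes within its longest first exon. Capitals mark the boxes, which start 84 and 34 bases before the RefSeq start of Acta2 and 161 and 99 bases before that of Myl9. Acta2 (gene at chr19:34241090-34255590) lies on the minus strand. Myl9 (chr2:156775420-156781658), Vtn (chr11:78499091-78502324) and Rgs5 (chr1:169655501-169695813) lie on the plus strand.
Acta2 first box (chr19:34255438-34255467): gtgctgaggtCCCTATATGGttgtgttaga
Acta2 second box (chr19:34255388-34255417): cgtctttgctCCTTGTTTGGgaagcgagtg
Myl9 (chr2:156775214-156775419): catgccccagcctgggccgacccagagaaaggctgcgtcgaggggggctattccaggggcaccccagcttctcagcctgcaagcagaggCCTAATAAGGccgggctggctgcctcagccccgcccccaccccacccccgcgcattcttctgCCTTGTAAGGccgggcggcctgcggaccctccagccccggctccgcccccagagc
Vtn (chr11:78498870-78499090): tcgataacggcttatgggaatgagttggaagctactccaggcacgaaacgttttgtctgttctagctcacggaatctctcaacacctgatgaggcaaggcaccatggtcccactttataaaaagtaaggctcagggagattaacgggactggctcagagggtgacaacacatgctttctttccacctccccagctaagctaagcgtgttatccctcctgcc
Rgs5 (chr1:169655251-169655500): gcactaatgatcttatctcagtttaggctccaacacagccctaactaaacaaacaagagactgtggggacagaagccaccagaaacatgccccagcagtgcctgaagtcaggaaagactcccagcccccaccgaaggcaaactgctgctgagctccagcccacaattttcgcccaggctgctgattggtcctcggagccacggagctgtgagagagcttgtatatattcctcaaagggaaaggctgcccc

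The contractile genes were highest in smooth muscle-like cells. Levels are CPM, the UMIs of a gene summed over the cells of a class and scaled to all UMIs of that class. Acta2 stood at 15107 CPM in the control library (Poisson 95% interval 14171 to 16088) and at 17923 in MNPQ (17148 to 18724). In pericyte-like cells it stood at 71.7 (4 UMIs) and 103 (7 UMIs), so smooth muscle-like cells exceeded pericyte-like cells 211-fold and 174-fold. All intervals here cover counting error within a library only. Tagln followed the same pattern, with 384 and 995 UMIs in smooth muscle-like cells and 0 and 1 UMI in pericyte-like cells. Myh11 stood at 2212 and 2266 CPM in smooth muscle-like cells and at 35.8 and 29.5 in pericyte-like cells, from 2 UMIs in each library.

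The other contractile genes were shared more widely between the mural classes. Myl9 was found in 23 of 25 control and 27 of 28 MNPQ pericyte-like cells. Its level there was 2580 (2176 to 3037) and 3388 (2964 to 3855) CPM, against 10699 and 11892 in smooth muscle-like cells, a gap of 4.15-fold and 3.51-fold. Mylk differed 4.94-fold and 5.92-fold between these classes, and Tpm1 7.17-fold and 10.7-fold. Tpm2 stood at 4719 and 4809 CPM in smooth muscle-like cells and at 125 (7 UMIs) and 368 (25 UMIs) in pericyte-like cells. Thus the light chain was the contractile gene that most pericyte-like cells held. Smooth muscle alpha-actin, transgelin and the smooth muscle myosin heavy chain were nearly at 0 in them.

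Vtn was the pericyte gene with the widest gap. It stood at 24724 (23436 to 26063) and 25232 (24051 to 26455) CPM in pericyte-like cells, and every one of these 53 cells had a Vtn UMI. In smooth muscle-like cells it stood at 5716 (5146 to 6331) in the control and 2293 (2021 to 2591) in MNPQ, 4.33-fold and 11-fold lower. Pdgfrb was at 1702 and 1208 in pericyte-like and 498 and 544 in smooth muscle-like cells. Rgs5 separated the classes least, at 8331 and 7173 in pericyte-like against 6370 and 4139 in smooth muscle-like cells, a gap of 1.31-fold and 1.73-fold.

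**Figure D1:**
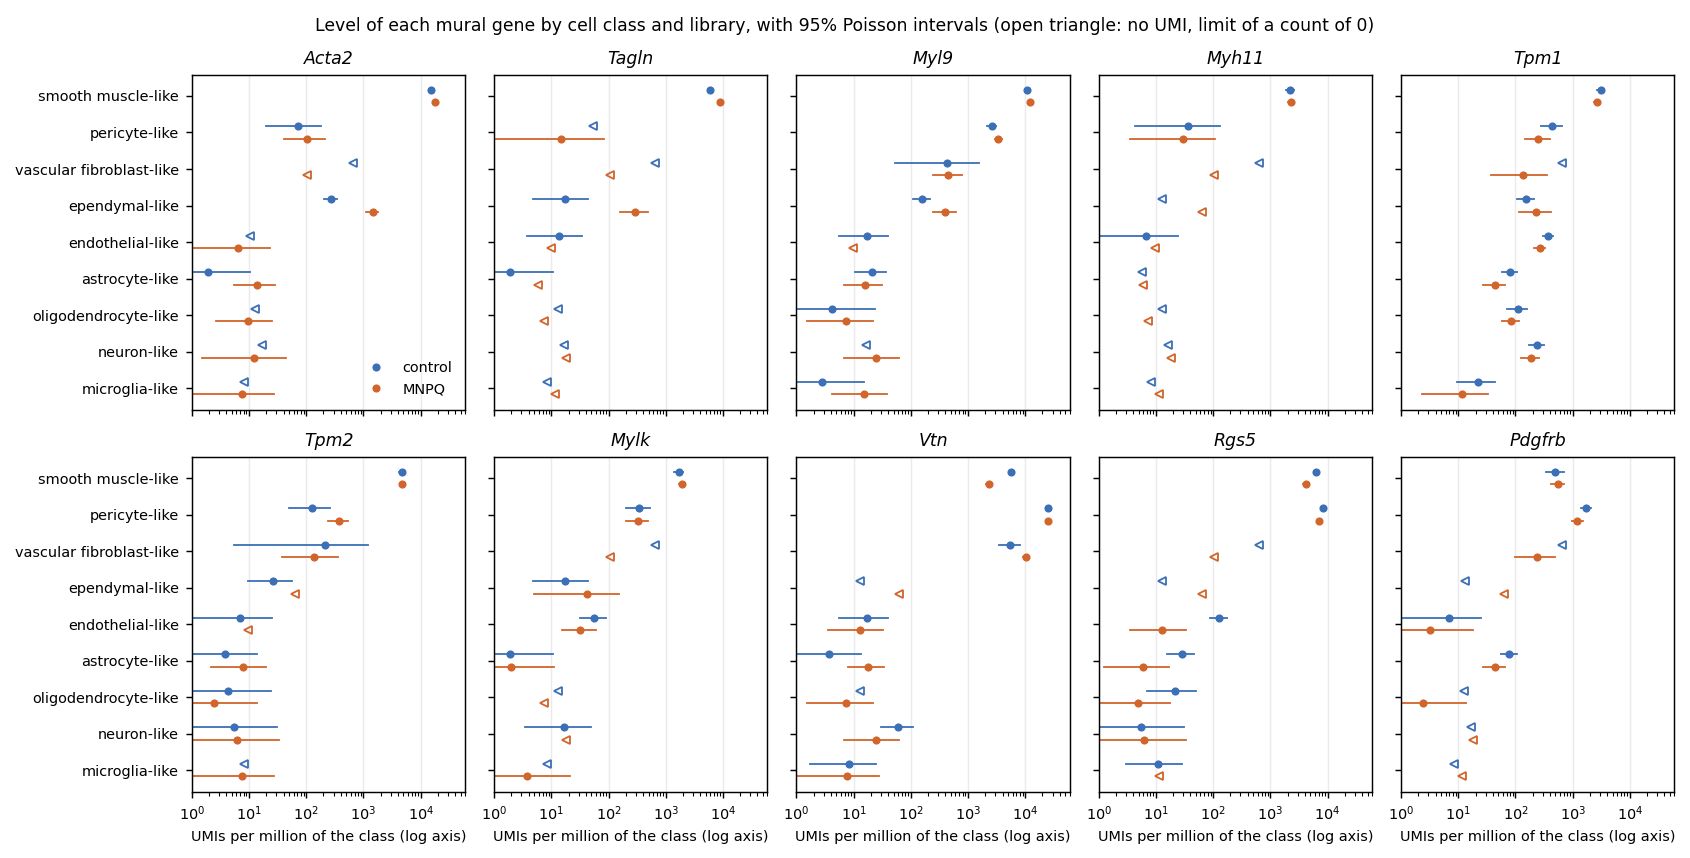
Level of each of the 10 genes (CPM of the class, log axis) in 9 cell classes, control in blue and MNPQ in orange, with Poisson 95% intervals as lines; open triangles mark classes with no UMI at the limit that a count of 0 allows (3 UMIs). Acta2, Tagln and Myh11 stand far above every other class in smooth muscle-like cells, while Vtn is highest in pericyte-like cells.

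Most UMIs of these genes lay in the mural-like cells, except for Tpm1 in the control library. Mural-like cells held 93.8% of control and 95.9% of MNPQ Acta2 UMIs, 97.7% and 98.6% for Tagln, 93.7% and 96.8% for Myl9, and 98.6% and 100% for Myh11. For Tpm2 the shares were 96% and 97.9%, for Mylk 84.1% and 94.4%, and for Rgs5 93.4% and 99%. Vtn reached 97.3% among control but 85.9% among MNPQ UMIs. Pdgfrb was less restricted (74.3% and 82.2%), and Tpm1 was the least restricted (45.2% and 61.7%).

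Some UMIs outside the mural classes formed patterns of their own. Ependymal-like cells, the ciliated lining of the ventricles, held 63 control and 69 MNPQ Acta2 UMIs, found in 11 of 29 and 6 of 6 cells. That is 271 (208 to 347) and 1440 (1120 to 1822) CPM. The background is given by microglia-like cells, where 0 of 192 control and 1 of 139 MNPQ cells had an Acta2 UMI, at median depths of 854 and 934 UMIs against 7073 and 9276 in ependymal-like cells. With each cell thinned to 500 UMIs, 6 of 35 ependymal-like and 0 of 331 microglia-like cells had an Acta2 UMI. Myl9 was found in 15 of 29 and 4 of 6 ependymal-like cells, while Myh11, Vtn, Rgs5 and Pdgfrb had no UMI in that class in either library. The 14 MNPQ Tagln UMIs of ependymal-like cells all came from 1 cell. With 6 MNPQ cells in the class, the ratio of the libraries rests on few cells, and 1 of them held 40.6% of the Acta2 UMIs.

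Vascular fibroblast-like cells held Vtn but no Acta2, Tagln, Myh11, Mylk or Rgs5 UMI. All 3 control and all 7 MNPQ cells of this class had a Vtn UMI, with 25 and 302 UMIs in sum, or 5379 and 10444 CPM. They held 1.39% of control and 13.2% of MNPQ Vtn UMIs, and 1 of the control cells held 80% of its library's 25. Pdgfrb appeared in 3 of 7 MNPQ fibroblast-like cells, with 7 UMIs. In astrocyte-like cells Pdgfrb had 41 control and 22 MNPQ UMIs, in 32 of 321 and 16 of 298 cells, against 0 UMIs in the 331 microglia-like cells of similar depth.

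Tpm1 was broadly present. It was found in 50 of 74 control and 37 of 68 MNPQ endothelial-like cells, at 369 (302 to 445) and 267 (213 to 331) CPM, and in 33 of 122 and 24 of 148 neuron-like cells. Endothelial-like cells also held 16 and 10 Mylk UMIs. Of the 37 control Rgs5 UMIs in endothelial-like cells, 36 came from 1 cell of 8783 UMIs that held UMIs of 9 of the 10 genes, all but Acta2, and was not called a doublet. That cell also held 6 of the 16 control Mylk UMIs. Without it, 1 of the other 73 control cells had an Rgs5 UMI.

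**Figure D2:**
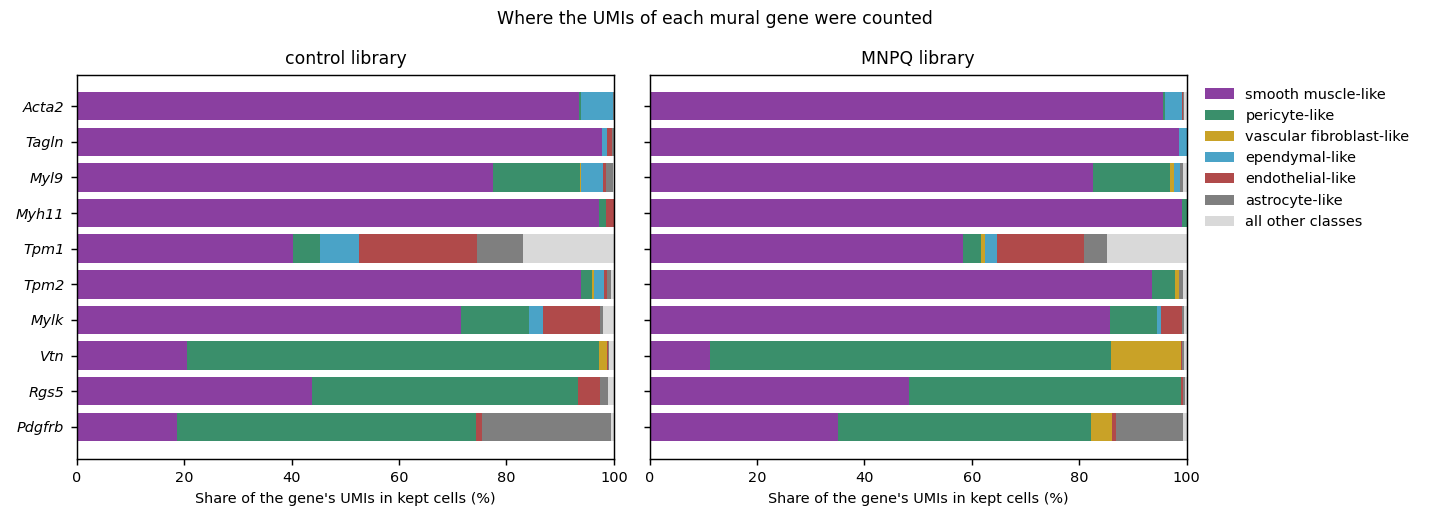
Share (%) of each gene's UMIs in kept cells by cell class, in the control library on the left and the MNPQ library on the right. Smooth muscle-like cells hold most UMIs of 6 of the 7 contractile genes in both libraries, Vtn is mostly in pericyte-like cells, and Tpm1 is spread over many classes.

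Vtn and Acta2 were then counted in the same cells. In the control library 13 of 52 cells with a Vtn UMI also had an Acta2 UMI (25%, Clopper-Pearson 95% interval 14% to 38.9%), and in the MNPQ library 20 of 74 (27%, 17.4% to 38.6%). The shares differed by less than their counting intervals. Of the 33 cells with both, 28 were smooth muscle-like, 4 pericyte-like and 1 oligodendrocyte-like with 1 UMI of each gene. No endothelial-like, astrocyte-like, neuron-like, microglia-like or fibroblast-like cell had both.

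The mural classes were close to opposite in this count. In smooth muscle-like cells 28 of 29 Vtn cells had an Acta2 UMI (96.6%, 82.2% to 99.9%), and in pericyte-like cells 4 of 53 (7.55%, 2.09% to 18.2%). The 4 pericyte-like cells had between 1 and 6 Acta2 UMIs. Smooth muscle-like cells were deeper (median 4884 against 2292 UMIs), so cells were also thinned to equal depth. At 1000 UMIs a cell, 20 of 23 smooth muscle-like and 2 of 42 pericyte-like Vtn cells kept an Acta2 UMI, with 1 and 11 shallower cells of those classes left out. At 500 UMIs a cell, 16 of 20 and 2 of 53 did. Drawing the classes differently moved the pericyte-like share, which was 10 of 50 under a stricter cell filter (500 or more genes, mitochondrial UMIs up to 10%) and 11 of 58 when each cell was classed by its own marker score.

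**Figure D3:**
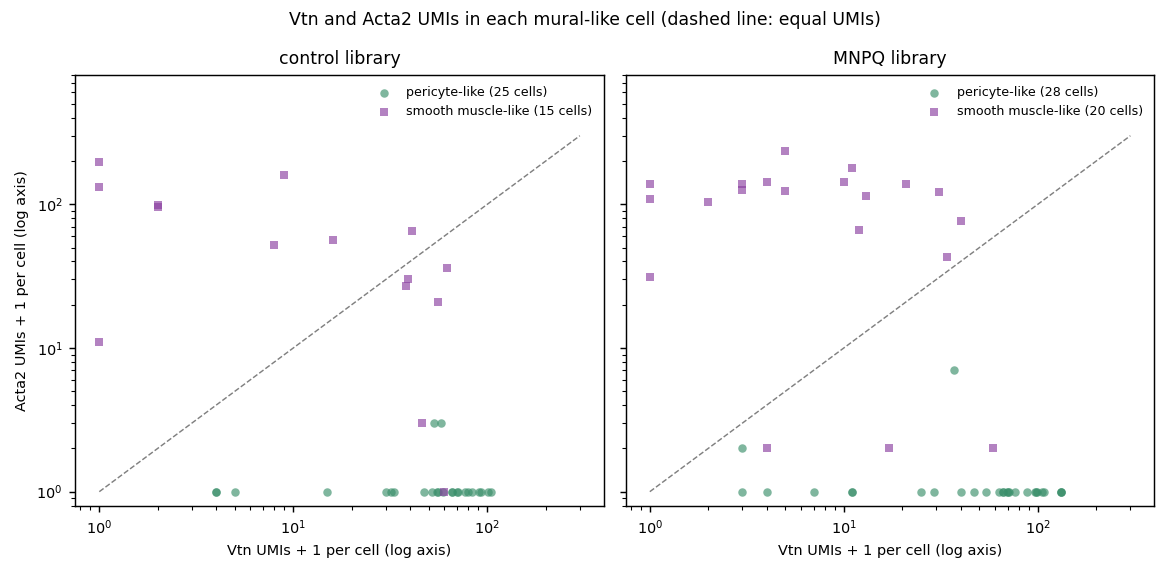
Vtn (x axis) and Acta2 (y axis) UMIs plus 1, on log axes, in each pericyte-like cell (circles) and smooth muscle-like cell (squares), with equal UMIs on the dashed line. Most pericyte-like cells lie on the floor of the Acta2 axis, and smooth muscle-like cells run from Acta2 alone to more Vtn than Acta2 in both libraries.

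Single smooth muscle-like cells ran between the contractile and the pericyte genes. Acta2 ranged from 0 to 196 UMIs a cell (median 51) in the control and from 1 to 234 (median 116) in MNPQ cells. Vtn ranged from 0 to 61 (median 15) and from 0 to 58 (median 6.5), so cells of both libraries overlapped widely for both genes. The contractile share of a cell's UMIs of the 10 genes had a median of 86.5% and ranged from 17.3% to 100% in these 35 cells. In 19 cells it was over 80%, in 15 between 20% and 80%, and in 1 under 20%. Pericyte-like cells had a median of 10.3% (0% to 63.6%), and 46 of 53 were under 20%. All 10 genes were found together in 21 of 35 smooth muscle-like cells and in no pericyte-like cell, and all 3 pericyte genes in 44 of 53 pericyte-like cells. Across the 35 smooth muscle-like cells the CPM of Acta2 and Tagln had a Spearman rho of 0.89, Acta2 and Vtn of -0.70, Tpm2 and Vtn of -0.85, and Vtn and Rgs5 of 0.78. These are descriptions over cells that share 2 libraries and differ in depth, and levels scaled to 1 total lower each other.

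**Figure D4:**
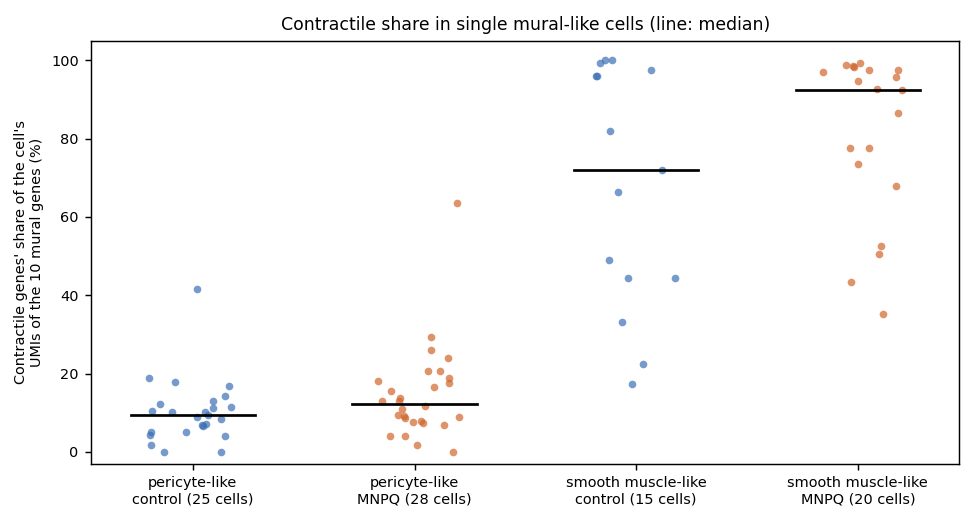
Contractile share (%) of each mural-like cell's UMIs of the 10 genes, by class and library, with 1 point per cell and the median as a line. Pericyte-like cells stay mostly under 20%, and smooth muscle-like cells spread from 17.3% to 100%, with medians of 72.1% (control) and 92.4% (MNPQ).

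At the low end, 9 smooth muscle-like cells had more Vtn than Acta2 UMIs, 6 of 15 control cells (40%, 16.3% to 67.7%) and 3 of 20 MNPQ cells (15%, 3.21% to 37.9%). This group was singled out after the values were seen. Each of the 9 had Myl9 and Rgs5 UMIs. Acta2 UMIs were found in 8 of them and Tagln UMIs in 8, but these were not the same 8. The 4 with Myh11 UMIs were all control cells. The 3 MNPQ cells each held 1 Acta2 UMI and no Myh11 UMI, and 1 of them had a depth of only 641 UMIs. The control cells held from 0 to 35 Acta2 UMIs. The pericyte markers other than the 10 genes had a median of 70.6 per 10000 UMIs in them, between 30.2 in the other 26 smooth muscle-like cells and 146 in pericyte-like cells. The smooth muscle markers ran the other way, with medians of 79.5, 240 and 21.7. Scrublet called none of the 9 a doublet, and their endothelial and fibroblast marker medians, 3.07 and 5 per 10000, lay near those of the other 26 (5.18 and 4.28). Astrocyte markers had a median of 2.48 (highest 18.8) in the 9 and of 0 (highest 7.14) in the other 26. Whether the 9 were mixed droplets of a pericyte and a smooth muscle cell cannot be told from these lists. The 9 sit at the border of the classes: 8 of them became pericyte-like under the stricter cell filter, with 1 left out, and 7 under marker scores.

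The genes closest to each member were taken over the class sums. Over 16 sums of 9 named classes, by library, and 8374 other genes, Tagln was most like Lmod1 (Pearson r of 0.971), the leiomodin of smooth muscle thin filaments. Acta2 was most like Pdlim3 (0.883), Myh11 most like Mustn1 (0.965), Myl9 most like Ano1 (0.941) and Mylk most like Map3k20 (0.941). Tpm1 was most like Mprip (0.893) and Tpm2 most like Serping1 (0.945). Of the pericyte genes, Vtn was most like Ndufa4l2 (0.945), Pdgfrb most like Cox4i2 (0.923) and Rgs5 most like Carmn (0.947), which was also the second closest gene to Myh11 (0.931). These values are over log2(CPM + 1) and describe sums that share libraries. Lmod1, Mustn1, Ndufa4l2 and Cox4i2 were also among the markers that named the classes, so their closeness is not independent of the naming.

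Over all kept cells, all 10 genes were higher in the MNPQ library, and 7 of the 10 had intervals above 0. Of all genes with at least 20 UMIs, 47.4% were higher. Tagln stood at 196 CPM in the control and 516 in MNPQ cells, a log2 ratio of 1.39 (95% interval 1.22 to 1.57). Acta2 stood at 518 and 1073, a log2 ratio of 1.05 (0.94 to 1.16). Myl9 (0.90), Tpm2 (0.87), Myh11 (0.84) and Mylk (0.77) had intervals above 0. Vtn had a log2 ratio of 0.39 (0.30 to 0.48), while the intervals of Tpm1 (0.09), Rgs5 (0.07) and Pdgfrb (0.06) included 0. These 3 also changed sign, Tpm1 to -0.25 and Pdgfrb to -0.47 with each cell weighted equally, and Rgs5 to -0.14 under the stricter cell filter. The median over the 10 was 0.80, against -0.03 over 12067 genes with at least 20 UMIs. Past 2-fold were 2 of the 10, Tagln and Acta2, where 9.75% of all genes were. Both were higher in MNPQ, where 2.45% of all genes were past 2-fold in that direction. Acta2 fell short of 2-fold under the stricter cell filter (0.94) and with each cell weighted equally (0.84).

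The amount of smooth muscle captured moved with these ratios. Smooth muscle-like cells held 3.21% of the UMIs of kept control cells and 5.72% of those of kept MNPQ cells, with 15 cells at a median of 4153 and 20 at a median of 5843 UMIs. Pericyte-like cells held 2.79% and 3.47%. More captured cells and more RNA per smooth muscle cell cannot be told apart in these summed levels. Other classes differed in number too, with 29 control and 6 MNPQ ependymal-like cells. Astrocyte-like clusters with Agt and Itih3 among their leading genes held 63 and 86 control but 9 and 25 MNPQ cells. Those with Ppp1r3g held 151 and 21 control but 223 and 41 MNPQ cells. With 1 library per group, a difference in the tissue dissected cannot be told apart from the treatment.

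Within smooth muscle-like cells the contractile ratios were much smaller. Acta2 had a log2 ratio of 0.25 (0.14 to 0.36), Tagln 0.57 (0.40 to 0.74) and Myl9 0.15 (0.02 to 0.29), and the intervals of Myh11 (0.04), Tpm1 (-0.21), Tpm2 (0.03) and Mylk (0.19) included 0. Of the pericyte genes 2 were lower there, Vtn with a log2 ratio of -1.32 (-1.55 to -1.08) and Rgs5 of -0.62 (-0.82 to -0.43), while Pdgfrb was at 0.13 (-0.51 to 0.79). Pdgfrb ranged from -0.35 with each cell weighted equally to 1.42 under the stricter cell filter. Vtn was the 1 gene of 10 past 2-fold, where 9.71% of 1442 genes were. Border cells were picked by having more Vtn than Acta2 UMIs, so a large share of Vtn follows in part from that choice. The 6 control border cells held 80.4% of the 367 control Vtn UMIs, and the 3 MNPQ border cells 30% of the 257. Their part in the ratio was not tested. Under the stricter cell filter, where 8 of the 9 border cells were pericyte-like and 1 was left out, the log2 ratio was 0.04 for Vtn, 0.56 for Rgs5, -0.07 for Acta2 and -0.09 for Myl9. With classes from marker scores, where 7 of the 9 were pericyte-like, Vtn was at -0.96, short of 2-fold, and Rgs5 at 0.02. Vtn stayed lower in MNPQ in 8 of 9 alternatives. Only the stricter cell filter and the marker scores took more than 1 of the 9 border cells out of the class. The count therefore says little about how the ratio depends on the border.

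Pericyte-like cells had nearly equal Vtn in both libraries, with a log2 ratio of 0.03 (-0.07 to 0.13). Rgs5 was at -0.22 (-0.40 to -0.03), Pdgfrb at -0.49 (-0.94 to -0.05) and Myl9 at 0.39 (0.09 to 0.70). Tpm2 had 7 control and 25 MNPQ UMIs, a log2 ratio of 1.55 (0.30 to 3.01), and was the 1 of 7 genes with at least 20 UMIs past 2-fold, where 10.5% of 1048 genes were. The median over those genes was 0.12. The stricter cell filter, under which this class had 27 control and 23 MNPQ cells, turned Tpm2 to -0.29 and Myl9 to -0.06. Marker scores gave 0.65 for Tpm2, short of 2-fold, and 0.21 for Myl9. Scaling by the median ratio of genes turned Vtn to -0.14, and weighting each cell equally turned Rgs5 to 0.34. Of 9 vascular fibroblast markers, 4 had a UMI in the pericyte-like cells of each library, at 18.3 per 10000 UMIs (single cells 0 to 55.6) in the control and 33.1 (0 to 217) in MNPQ cells. Lum, Col1a1, Pdgfra and Igf2 were at 0 in both. Astrocyte markers stood at 5.91 and 15.9 per 10000 UMIs there, with 8 and 9 of 10 genes detected. Yet fewer MNPQ cells held any, 11 of 28 against 16 of 25 control cells. Single control cells had a median of 3.93 per 10000 (0 to 106) and MNPQ cells of 0 (0 to 112). Endothelial markers stood at 7.35 and 7.95, with 3 and 6 of 11 detected. The part of these transcripts in the ratios was not tested.

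In all mural-like cells together, the 3 pericyte genes were lower and 6 of 7 contractile genes higher in the MNPQ library, though the intervals of Myh11 and Mylk included 0. Tagln had a log2 ratio of 0.79 (0.62 to 0.96) and Acta2 of 0.47 (0.35 to 0.58), while Vtn was at -0.41 (-0.51 to -0.32), Rgs5 at -0.46 (-0.60 to -0.33) and Pdgfrb at -0.41 (-0.77 to -0.06). Past 2-fold were 0 of 10, where 9.61% of 2612 genes were. Beside these ratios, smooth muscle-like cells made up 53.5% (control) and 62.3% (MNPQ) of mural-like UMIs. Weighting each cell equally turned Rgs5 to 0.03.

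**Figure D5:**
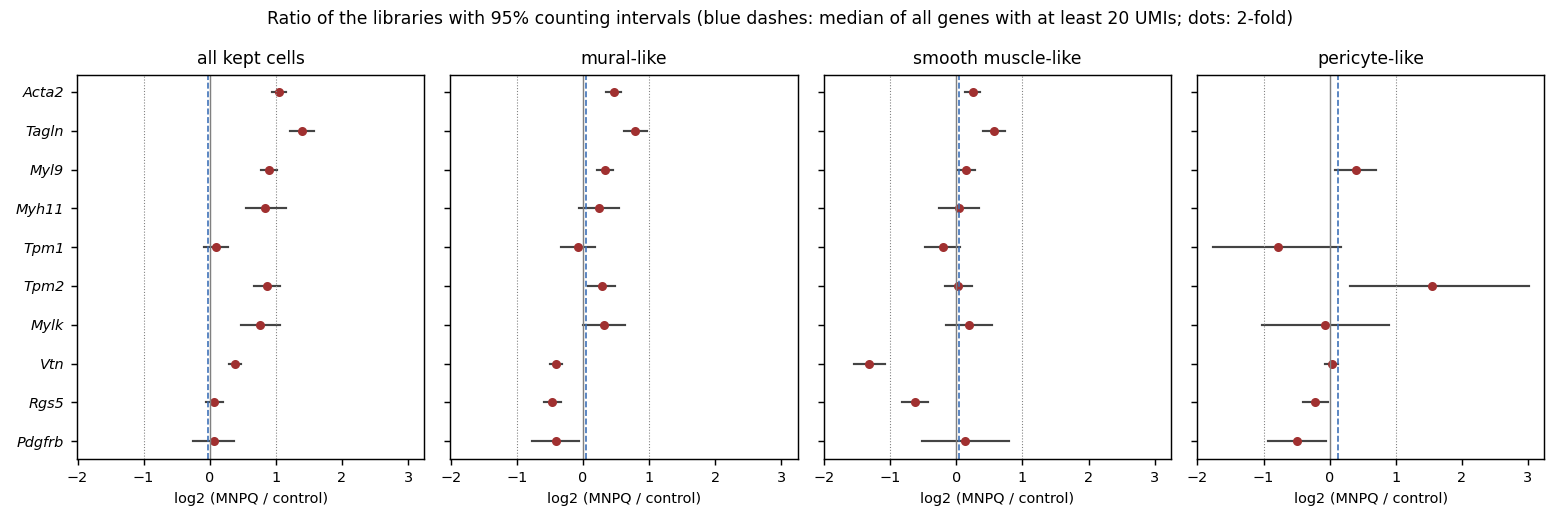
Log2 ratio of MNPQ over control for each gene with at least 20 UMIs (points, with 95% counting intervals as lines) in all kept, mural-like, smooth muscle-like and pericyte-like cells; the blue dashes mark the median of all genes and the dotted lines 2-fold. Over all kept cells 6 of the 7 contractile genes lie above 0 with their intervals, and Tpm1 does not. Within smooth muscle-like cells Tagln (0.57), Acta2 (0.25) and Myl9 (0.15) do, while Vtn and Rgs5 lie below 0.

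Other genes of these pathways were counted in mural-like cells from lists of related genes. Of 31 other contractile genes with at least 20 UMIs, 24 were higher and 7 lower in the MNPQ library, with a median log2 ratio of 0.23 against 0.05 over all genes. The highest was Lpp at 0.89 (-0.06 to 1.92), the lowest was Cald1, which encodes the actin-binding caldesmon, at -0.51 (-0.70 to -0.32), and Crip1 was the most abundant at 0.11 (-0.01 to 0.23). Within smooth muscle-like cells 17 of 30 were higher, with a median of 0.02, where 54.1% of all genes were higher. Of 28 other pericyte genes, 8 were higher and 20 lower, with a median of -0.27, where 54.7% of all genes were higher. They ran from Ecm2 at -1.22 (42 and 27 UMIs) to Notch3, the Notch receptor of mural cells, at 0.57 (0.02 to 1.15), and the most abundant, Ptn, was at -0.68. Within pericyte-like cells 13 of 27 were higher, with a median of -0.03, where 58.8% of all genes were higher. Within smooth muscle-like cells 4 of 19 were higher and 15 lower, with a median of -0.32. Of the 15, 5 were past 2-fold, where 3.88% of all 1442 genes were at least 2-fold lower. The list holds all 13 markers that named pericyte-like cells, so its counts are not independent of the naming. Border cells were 6 of 15 control and 3 of 20 MNPQ smooth muscle-like cells. They held those markers at a median of 70.6 per 10000 UMIs, against 30.2 in the other 26. The part of the border cells in these ratios was not tested. Over all kept cells the direction was opposite, with 22 of 28 higher and a median of 0.30, where 47.4% of all genes were higher.

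Regulators and partners were sparser. Of 20 measured genes that control the contractile programme, 10 had at least 20 UMIs, 5 higher and 5 lower, with a median of 0.09. The lowest was Tbx18, a transcription factor of mural cells, at -1.86 (17 and 7 UMIs), the highest was Foxs1 at 0.62 (23 and 53 UMIs), and Mef2c was the most abundant at -0.28. Of 8 vitronectin-binding integrins and partners, 2 had at least 20 UMIs: Itgb1, the beta 1 integrin chain, stood at 1150 and 572 CPM, a log2 ratio of -1.01 (-1.39 to -0.63), and Itgb5 was at -0.03. Of 12 other RGS genes, Rgs4 (0.18) and Rgs10 (-0.05) reached 20 UMIs. Pdgfa, at 0.01 (33 and 50 UMIs), was the 1 of 5 other PDGF ligand and receptor genes that did. Of 8 other actins, tropomyosins and light chains, 7 had at least 20 UMIs. Of these, 5 were higher, where 54.7% of all genes were, and they ran from Actb at -0.14 to Actg1 at 0.70. Most of this list also stands among the other contractile genes.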

How the data were processed

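The authors deposited UMI counts per gene and barcode, as whole numbers. The file headers name Cell Ranger 3.0.2, and the submitters' processing notes name mm10. The counting options and the choice of barcodes are not given in the sources used here, and each barcode has at least 500 UMIs. Both libraries were filtered and clustered together with scanpy 1.11.5 (2000 variable genes, 30 principal components, 15 neighbours, Leiden resolution 1.0), without batch integration. A cluster took the name of the list, of 16, with the highest mean log2 fold, if that was at least 1 and 3 or more markers were detected. The members and lists were chosen with earlier results of these data known. Doublets called by Scrublet, 9 control and 6 MNPQ cells, were kept. UMIs were summed per class and library and scaled to CPM. Named genes were the 10 members and, per list, the highest, lowest and most abundant gene with at least 20 UMIs. No test was made, since cells of 1 library are not replicates. Shares have Clopper-Pearson (scipy 1.17.1), levels Poisson and ratios conditional binomial 95% intervals, which cover counting error only. Genes most like a member were ranked by Pearson r over class sums of at least 10 cells, among genes with at least 60 UMIs. The ratio and its interval were tried on simulated counts that held counting error only. Such counts cannot show how spread between cells or animals would widen the interval. Alternatives were other cell filters, clusterings, scalings, thinning and a detection limit of 2 UMIs.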

Additional observations from a re-analysis of the deposited data

Results flagged for a closer look

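The barcodes that failed the cell filter were not part of the comparisons, and all 7 contractile genes were higher in those of the MNPQ library than in those of the control library. For 3 of them, Acta2, Tpm2 and Tagln, the Poisson 95% intervals did not overlap. Acta2 had 20 UMIs in 111 MNPQ barcodes, 194 CPM (95% interval 118 to 299), and 1 UMI in 223 control barcodes, 4.83 CPM (0.122 to 26.9). Tpm2 had 13 UMIs against 2, which is 126 CPM (67 to 215) against 9.65 (1.17 to 34.9). Tagln had 8 UMIs against 0, which is 77.4 CPM (33.4 to 153) against an upper bound of 17.8. Single barcodes held most of these UMIs, with 18 of the 20 for Acta2, 12 of the 13 for Tpm2 and all 8 for Tagln. Vtn ran the other way, with 38 control UMIs in 4 barcodes and 6 MNPQ UMIs in 5 barcodes.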

How the results depend on the processing

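No paired analysis was possible because each group has 1 library. The number of mural-like cells stayed within 1.5 times under all 6 ways of filtering and classing cells. The median log2 ratio of the members over all kept cells, 0.80, fell to 0.50 when each cell was weighted equally. The share of Vtn cells with Acta2 was 17.2% in the MNPQ library and 17.8% over both libraries when cells were thinned to 500 UMIs, which removes UMIs of both genes. Of 23 log2 ratios whose interval lay off 0, 8 changed sign under some alternative, in 10 of 207 values. Of 14 whose interval included 0, 9 did, in 15 of 126 values. The 10 values of the first group follow. With each cell weighted equally, Rgs5 went to 0.033 in mural-like and 0.342 in pericyte-like cells. Under the stricter cell filter (500 genes, mitochondrial UMIs up to 10%), Myl9 went to -0.0613 and Tpm2 to -0.288 in pericyte-like cells, and Acta2 to -0.0736, Myl9 to -0.0884, Vtn to 0.0448 and Rgs5 to 0.558 in smooth muscle-like cells. When each cell was classed by its own marker score, Myl9 went to -0.00433 and Rgs5 to 0.0213 in smooth muscle-like cells. The stricter filter and the marker scores moved border cells between these classes, and the filter also left cells out. The cause was not tested. The smooth muscle-like and pericyte-like values under each setting were added after the data were seen. Depth limits the low members: Tagln, Myh11 and Acta2 had 7 UMIs or fewer per library in pericyte-like cells.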
